A study of Mus musculus with 18 samples.

Results

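The 10 genes described here are parts and targets of bone morphogenetic protein (BMP) signalling: the ligand genes Bmp2 and Bmp4, the receptor gene Bmpr1a, the inhibitor genes Bambi and Smad6, and the target genes Id1, Id2, Id3, Id4 and Atoh8. They were taken by name from a list, matched to the deposited Ensembl identifiers, and make up 10 of the 52636 genes counted. Positions are on GRCm38, from GENCODE. Each had 1 identifier, and all 10 passed the filter on low counts, which left 16497 genes for testing.

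The libraries come from mouse lung cells labelled as alveolar type 2, the surfactant-making epithelial cells of the air sacs, which had been cultured for 19 days with CHIR99201, a Wnt agonist. Every group also received LGK974, an inhibitor of Porcupine that stops cells from secreting their own Wnt proteins. In 3 further groups CHIR99201 was replaced by a ligand of Frizzled receptors: Wnt, an FZD5 agonist or an FZD6 agonist. The other groups were the CHIR99201 control, here called CHIR, and cells from which CHIR99201 had been withdrawn for 24 h or 48 h. The labels give 8 to 12 h of treatment with the modulators but do not say whether the ligands were added at once or after a withdrawal, so each ligand group was set against CHIR and against both withdrawal times. Strain, age and sex are not given in the labels. Each group held 3 libraries. Whether these came from separate cultures or animals is not stated, and p-values therefore cover only library-to-library spread, which could be technical.

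BMP ligands bind paired type I and type II receptor kinases on the cell surface. The type I receptor phosphorylates the receptor-regulated Smad proteins, which join Smad4 and enter the nucleus to switch genes on, the Id genes among them. Id proteins bind E proteins, a class of transcription factors, and keep them off DNA. Some targets, such as Smad6 and Bambi, feed back to dampen the pathway. In the mouse lung, BMP signalling is known to act on the balance between renewal of alveolar type 2 cells and their differentiation into flat alveolar type 1 cells.

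Levels below are in CPM, counts divided by the TMM-scaled library size, and differences are log2 fold changes from edgeR with a standard error (SE). The libraries held 31509607 to 52030066 counts. Libraries are numbered by replicate. Median correlation to the other libraries was 0.782 to 0.950 in FZD6 agonist 1, 24 h withdrawal 2, CHIR 3 and CHIR 1. It was 0.966 to 0.982 in the 14 that remain, so the first 4 stood apart. CHIR 2 had the lowest value of the 14, 0.966, and the next lowest was 0.978, in 48 h withdrawal 2. CHIR 2 thus lay between the rest of the 14 and FZD6 agonist 1, at 0.950, the highest of the 4 that stood apart. Sftpc, which encodes surfactant protein C and defines alveolar type 2 cells, made up 9.11% to 13.0% of counts in these 4 and 3.95% to 5.63% in the 14. Basal cell markers reached 12.6 summed CPM in FZD6 agonist 1 and 3.03 in CHIR 3, and stayed at or below 0.105 in the 14 libraries. Of the mesenchymal markers 3 of 7 were at 0 in all 18 libraries and the list summed to at most 0.714 CPM. Of the endothelial markers 2 of 6 were at 0 and the list summed to at most 0.466 CPM. Of the haematopoietic markers 1 of 6 was at 0, and the list, which holds Lyz2, a gene that alveolar type 2 cells also express, summed to 171 to 2017 CPM. Each test was run on all 18 libraries and repeated on the 14. In the 14, CHIR 2 alone stands for CHIR and is assumed to vary like the other groups. Pairs of CHIR libraries differed by 348 to 456 in chi-square per degree of freedom. Within the other groups, pairs among the 14 differed by 7.08 to 68.0. Each CHIR pair holds a library that stood apart, so the assumption could not be checked without those libraries. Adjusted p against CHIR 2 rest on the spread of the other groups. In these bulk libraries, fewer cells of a type and less RNA per cell cannot be told apart.

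Bambi (chromosome 18, 3507923 to 3516404, plus strand), a membrane pseudoreceptor that lacks a kinase domain and blocks BMP and transforming growth factor beta receptors, fell into a high and a low set of groups. It was at 30.4, 29.5 and 31.6 CPM in the Wnt libraries, at 14.1, 14.8 and 18.7 CPM with the FZD5 agonist, and at 18.9, 16.7 and 16.5 CPM with the FZD6 agonist. It was at 11.4, 11.4 and 19.9 CPM in CHIR, at 15.8, 17.4 and 14.1 CPM after 24 h of withdrawal, and at 31.4, 30.0 and 32.2 CPM after 48 h. The Wnt and 48 h withdrawal libraries ran from 29.5 to 32.2 CPM and all others from 11.4 to 19.9 CPM. The 4 libraries that stood apart were all on the lower side, and 2 of them, CHIR 3 and FZD6 agonist 1, had its highest values. The 4 lower groups overlapped.

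Over 18 libraries Bambi was higher after 48 h of withdrawal than in CHIR by 1.13 (SE 0.219, edgeR adjusted p = 0.0138), and higher with Wnt than in CHIR by 1.10 (SE 0.219, edgeR adjusted p = 0.0201). It was 1 of 2 members called in the 48 h comparison, in which 2.59% of all tested genes were called, and the only member called in the Wnt comparison, against 1.92% of all tested genes. It was also the only member called in the test for any difference among the 6 groups (edgeR adjusted p = 0.0348), against 0.649% of all tested genes. Each of the calls was lost when any 1 of the 48 h or Wnt libraries was left out of its comparison, and the Wnt call also without CHIR 1, with adjusted p up to 0.0682 and 0.102 and with log2 fold changes of 0.99 to 1.46 and 0.96 to 1.43. In fits of only the compared groups neither passed, at 1.13 after 48 h and 1.09 with Wnt (edgeR adjusted p = 0.114 and 0.133).

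With the FZD5 agonist, Bambi averaged 15.8 ± 2.497 CPM, against 30.5 ± 1.04 CPM with Wnt and 31.2 ± 1.14 CPM after 48 h of withdrawal (SD, n = 3 each). None of these 9 libraries stood apart. In fits of only the compared groups, where 13.1% and 13.0% of all tested genes were called, Bambi was lower with the FZD5 agonist than with Wnt by -0.95 (SE 0.118, edgeR adjusted p = 0.00147) and lower than after 48 h of withdrawal by -0.99 (SE 0.119, edgeR adjusted p = 0.00118). Over 18 libraries the same differences were -0.95 and -0.98 (SE 0.219 each), with unadjusted p of 0.000559 and 0.000419, and neither passed the adjustment over all genes (edgeR adjusted p = 0.759 and 0.674). Over 14 libraries both passed (edgeR adjusted p = 2.46e-05 and 1.69e-05). The FZD6 agonist gave differences of -0.89 from Wnt and -0.90 from 48 h withdrawal over 14 libraries (SE 0.116 each, edgeR adjusted p = 0.000167 and 0.000116). Over 18 libraries neither passed, at -0.81 and -0.84, and in the fit of only the FZD6 agonist and 48 h withdrawal groups, where 0.199% of all tested genes were called, it passed at -0.86 (edgeR adjusted p = 0.0396). In the fit of only the FZD6 agonist and Wnt groups it did not pass (-0.83, edgeR adjusted p = 0.0574). Against CHIR 2, Bambi was higher with the FZD5 agonist by 0.50 and with the FZD6 agonist by 0.57 over 14 libraries. These 2 differences rest on 1 CHIR library. CHIR 3, at 19.9 CPM, exceeded every library of both agonists. With 1 of the 18 libraries left out, the differences from CHIR fell to as low as 0.01 and 0.15, and neither was called. The FZD5 and FZD6 agonist groups did not differ beyond their spread (difference -0.07, SE 0.115, over 14 libraries), nor did Wnt and 48 h withdrawal (difference -0.02, SE 0.100).

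With the FZD5 agonist, club cell marker sums were lower than with Wnt and after 48 h of withdrawal, as Bambi was. Proliferation marker sums were higher, opposite to Bambi, and alveolar type 1 sums overlapped between the groups. The 5 proliferation markers summed to 463 to 615 CPM with the FZD5 agonist, against 257 to 312 CPM with Wnt and 199 to 255 CPM after 48 h of withdrawal. The 6 club cell markers summed to 141 to 355 CPM with the FZD5 agonist, against 496 to 551 CPM with Wnt and 525 to 658 CPM after 48 h of withdrawal. Over the 14 libraries nearly all of this sum was 1 gene, Cyp2f2, at 46.0 to 648 CPM. Muc5b reached at most 27.9 CPM there. Scgb1a1, Scgb3a1, Scgb3a2 and Bpifa1 reached at most 0.947, 1.13, 0.286 and 0.111 CPM. The 8 alveolar type 1 markers summed to 5662 to 7640 CPM with the FZD5 agonist, against 6970 to 7628 CPM with Wnt and 7362 to 8355 CPM after 48 h of withdrawal. Aqp5 and Ager, at 2580 to 4426 and 428 to 2961 CPM over the 14 libraries, made up most of this sum. Changes in less abundant markers, such as Cav1 at 3.28 to 62.8 CPM, could be hidden in it. In CHIR 2, proliferation markers reached 753 CPM, club cell markers 47.0 CPM and alveolar type 1 markers 3334 CPM. Among the libraries that stood apart, CHIR 3, FZD6 agonist 1 and 24 h withdrawal 2 broke the pattern, having low Bambi. Their club cell markers summed to 863, 821 and 582 CPM and their proliferation markers to 89.8, 171 and 56.3 CPM. CHIR 1 followed it, at 46.5 and 812 CPM. The part of these cell states in the results on Bambi, or in any comparison with CHIR 2, was not tested.

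**Figure D1:**
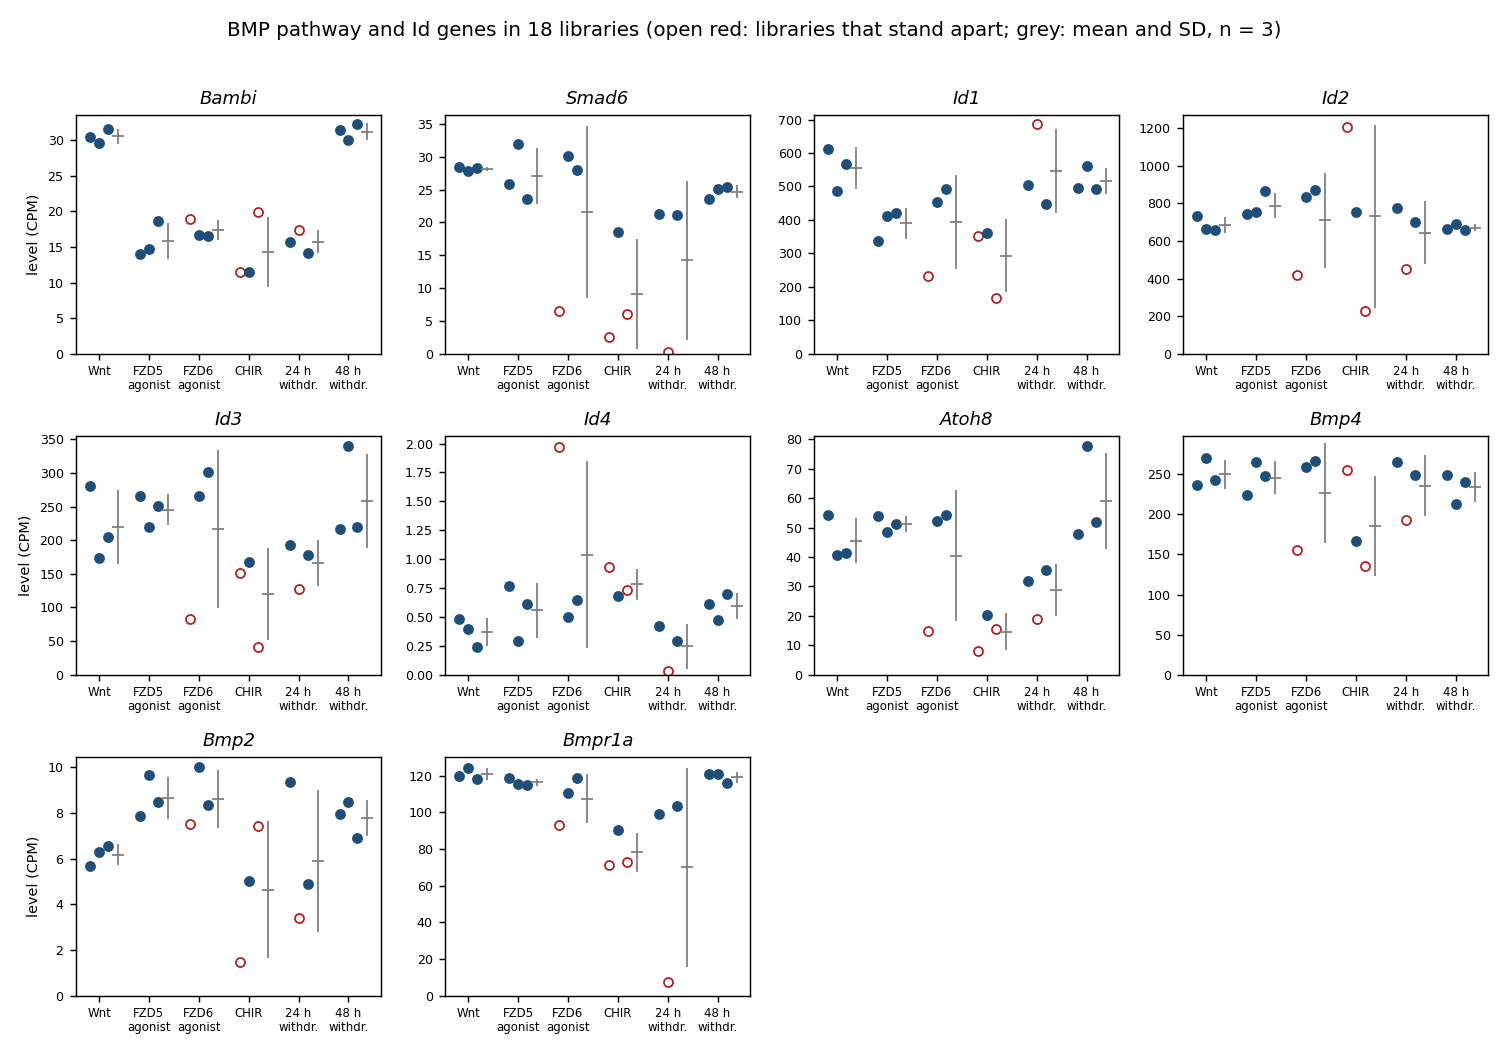
Levels of the 10 genes in CPM (linear axes from 0, a scale of its own for each gene) in the 3 libraries of each of the 6 groups, with group mean and SD in grey and the 4 libraries that stood apart as open red circles. Bambi lies between 29.5 and 32.2 CPM in the Wnt and 48 h withdrawal libraries and at or below 19.9 CPM in all others, while the open circles hold the 4 lowest Smad6 values and both the highest and the lowest Id2 value.

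Smad6 (chromosome 9, 63953076 to 64022059, minus strand), an inhibitory Smad that binds type I receptors and is itself switched on by BMP, ran from 18.5 to 31.9 CPM in the 14 libraries. It was at 28.4, 27.9 and 28.2 CPM with Wnt, at 25.8, 31.9 and 23.6 CPM with the FZD5 agonist, and at 6.496, 30.1 and 27.99 CPM with the FZD6 agonist. It was at 2.60, 18.5 and 6.04 CPM in CHIR, at 21.3, 0.282 and 21.1 CPM after 24 h of withdrawal, and at 23.6, 25.1 and 25.4 CPM after 48 h. The 4 lowest values were those of the 4 libraries that stood apart, and CHIR 2 was the lowest of the rest. Over 18 libraries Smad6 was called in no comparison, and 48 h withdrawal minus CHIR was 1.45 (SE 0.921, edgeR adjusted p = 0.473). Over 14 libraries it was higher than in CHIR 2 with Wnt by 0.64, with the FZD5 agonist by 0.58, with the FZD6 agonist by 0.68 and after 48 h by 0.44 (edgeR adjusted p = 0.00363, 0.0140, 0.0111 and 0.0318).

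Promoters are printed for 3 members that differ in how they moved: Atoh8, which had the widest ratio of highest to lowest value over the 14 libraries, Smad6, the inhibitor, and Id2, which had the narrowest. An entry was found for 7 of the 10 members in the RefSeq promoter table (GRCm38.p6), which gives 250 bases before to 50 after each start. The sequences are the minus strand at chr9:64022010-64022309 for Smad6, chr12:25096043-25096342 for Id2 and chr6:72235528-72235827 for Atoh8, each 5′ to 3′, with motif matches in capitals.
Smad6: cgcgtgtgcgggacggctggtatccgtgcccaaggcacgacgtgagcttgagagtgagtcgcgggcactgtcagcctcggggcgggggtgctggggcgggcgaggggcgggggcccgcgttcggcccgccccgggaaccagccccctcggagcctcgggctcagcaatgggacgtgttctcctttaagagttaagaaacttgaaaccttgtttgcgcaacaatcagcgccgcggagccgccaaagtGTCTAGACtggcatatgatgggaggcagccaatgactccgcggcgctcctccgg
Id2: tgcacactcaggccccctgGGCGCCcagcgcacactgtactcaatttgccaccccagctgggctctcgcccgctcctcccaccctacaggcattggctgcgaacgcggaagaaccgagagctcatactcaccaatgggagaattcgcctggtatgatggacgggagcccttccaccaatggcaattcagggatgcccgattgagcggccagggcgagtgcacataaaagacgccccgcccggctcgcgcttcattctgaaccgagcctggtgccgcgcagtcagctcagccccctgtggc
Atoh8: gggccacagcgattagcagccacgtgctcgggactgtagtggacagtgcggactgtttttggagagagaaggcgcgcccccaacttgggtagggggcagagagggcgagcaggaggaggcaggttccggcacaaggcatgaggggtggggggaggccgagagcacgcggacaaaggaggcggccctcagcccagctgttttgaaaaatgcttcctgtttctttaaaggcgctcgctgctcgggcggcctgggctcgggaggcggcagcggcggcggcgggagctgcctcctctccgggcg
The capitals in Smad6 are the palindromic Smad binding element GTCTAGAC, whose first base lies at -4 from the start site and which 0.213% of 32851 promoters hold. Those in Id2 are GGCGCC, a GC-rich Smad element, at -231. It was also found in Id4 at -148 and in Bmpr1a at -198, and 11.9% of all promoters hold it. CTTTGAA or CTTTGAT, forms of the element bound by the Wnt effectors TCF and LEF, was found in none of the 7 and in 8.65% of all promoters. Both strands were searched, and no match in a member overlapped another. Atoh8 had no match to any of them in this window.

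Per length, Id1, Id2 and Id3 were the most abundant of the 10 genes. Id1, on the plus strand of chromosome 2 at 152736251 to 152737410, was at 612, 486 and 568 CPM with Wnt, at 337, 411 and 422 CPM with the FZD5 agonist, and at 232, 454 and 493 CPM with the FZD6 agonist. It was at 351, 361 and 167 CPM in CHIR, at 503, 687 and 448 CPM after 24 h of withdrawal, and at 495, 560 and 492 CPM after 48 h. Every Wnt and 48 h withdrawal library lay above every FZD5 agonist and CHIR library. In fits of only the compared groups, Id1 was lower with the FZD5 agonist than with Wnt by -0.52 (SE 0.111, edgeR adjusted p = 0.0169) and than after 48 h of withdrawal by -0.41 (SE 0.0991, edgeR adjusted p = 0.0255). Both were called over 14 libraries (-0.51 and -0.39, edgeR adjusted p = 0.00212 and 0.0124) and neither over 18. With the FZD6 agonist, Id1 overlapped both groups over 18 libraries and was called against neither.

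Id2 (chromosome 12, 25093799 to 25097140, minus strand) differed from Wnt and 48 h withdrawal in the opposite direction to Id1. It was at 744, 756 and 865 CPM with the FZD5 agonist and at 419, 837 and 873 CPM with the FZD6 agonist, against 732, 661 and 660 CPM with Wnt and 666, 691 and 656 CPM after 48 h of withdrawal. All FZD5 agonist libraries were above all Wnt and 48 h libraries, and the only low agonist value was FZD6 agonist 1, which stood apart. Over 14 libraries Id2 was higher than after 48 h of withdrawal by 0.24 with the FZD5 agonist (SE 0.0715, edgeR adjusted p = 0.0304) and by 0.36 with the FZD6 agonist (SE 0.0793, edgeR adjusted p = 0.00754). It was higher with the FZD6 agonist than with Wnt by 0.31 (SE 0.0793, edgeR adjusted p = 0.0172), while the FZD5 agonist difference from Wnt did not pass (0.20, edgeR adjusted p = 0.0683). None of these passed over 18 libraries. In CHIR, Id2 was at 1207, 756 and 230 CPM, so the libraries that stood apart were both the highest and the lowest of all 18.

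Id3 (chromosome 4, 136143497 to 136145755, plus strand) was called in no comparison over 18 or 14 libraries. It ran from 41.4 to 340 CPM over 18 libraries and from 167 to 340 CPM over 14. After 48 h of withdrawal it was at 216, 340 and 220 CPM, above 150, 167 and 41.4 CPM in CHIR without overlap (1.11, SE 0.473, edgeR adjusted p = 0.248 over 18 libraries). Id4 (chromosome 13, 48261228 to 48266026, plus strand) was close to the detection limit, with 429 counts in all libraries together and 0.0352 to 1.97 CPM, where 3 counts amount to 0.0589 to 0.106 CPM. Its highest value, 76 counts, was in FZD6 agonist 1, and it was called nowhere. Id4 shares 82 exonic bases with the antisense gene A330033J07Rik, which had 4 counts, and 171 with Gm49291, which had 0.

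Atoh8 (chromosome 6, 72206177 to 72235577, minus strand), a basic helix-loop-helix transcription factor and known BMP target, was lowest in CHIR and higher after 48 h of withdrawal. It was at 54.4, 40.8 and 41.4 CPM with Wnt, at 53.8, 48.5 and 51.3 CPM with the FZD5 agonist, and at 14.7, 52.2 and 54.3 CPM with the FZD6 agonist. It was at 7.93, 20.2 and 15.7 CPM in CHIR, at 31.7, 19.0 and 35.6 CPM after 24 h, and at 47.8, 77.6 and 51.7 CPM after 48 h. Every 48 h withdrawal, Wnt and FZD5 agonist library exceeded every CHIR and 24 h withdrawal library, and FZD6 agonist 1 fell among CHIR values. Over 18 libraries Atoh8 was higher after 48 h of withdrawal than in CHIR by 2.01 (SE 0.435, edgeR adjusted p = 0.0241), the second member called there. Leaving out CHIR 1 or any 48 h library ended the call (edgeR adjusted p up to 0.110, log2 fold change 1.72 to 2.34), as did a fit of only the compared groups (2.01, edgeR adjusted p = 0.0789). Over 14 libraries Atoh8 was higher than in CHIR 2 by 1.57 after 48 h, by 1.21 with Wnt, by 1.37 with the FZD5 agonist and by 1.43 with the FZD6 agonist (edgeR adjusted p = 0.000561, 0.00317, 0.00354 and 0.00522), and higher after 48 h than after 24 h by 0.82 (edgeR adjusted p = 0.00917). Wnt, both agonists and 48 h withdrawal were not called against each other.

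Bmp4 (chromosome 14, 46383520 to 46390669, minus strand), a secreted ligand and the more abundant of the 2 ligand members per length, ran from 166 to 271 CPM in the 14 libraries, with CHIR 2 the lowest. It was at 237, 271 and 243 CPM with Wnt, at 225, 265 and 248 CPM with the FZD5 agonist, and at 155, 260 and 266 CPM with the FZD6 agonist. It was at 255, 166 and 136 CPM in CHIR, at 265, 193 and 249 CPM after 24 h of withdrawal, and at 249, 213 and 240 CPM after 48 h. In CHIR the 3 libraries spanned most of the range seen over all 18. Over 18 libraries Bmp4 was called nowhere, and over 14 it was higher than in CHIR 2 in all 5 other groups, by 0.51 to 0.69 (edgeR adjusted p = 0.000731 to 0.00748). Bmp4 shares 89 exonic bases with Gm15217 on the other strand, which had 2106 counts against 165722 for Bmp4, and strand use in counting is not given in the sources used here.

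Bmp2 (chromosome 2, 133552159 to 133562885, plus strand), the other ligand member, ran from 1.48 to 10.02 CPM. It was at 7.86, 9.66 and 8.48 CPM with the FZD5 agonist, against 5.66, 6.30 and 6.58 CPM with Wnt, without overlap. It was at 7.53, 10.02 and 8.35 CPM with the FZD6 agonist, and at 1.48, 5.004 and 7.45 CPM in CHIR, 9.38, 3.42 and 4.89 CPM after 24 h of withdrawal and 7.94, 8.48 and 6.91 CPM after 48 h. In the fit of only the FZD5 agonist and Wnt groups it was higher with the agonist by 0.48 (SE 0.137, edgeR adjusted p = 0.0471), a call absent over 14 libraries (0.48, edgeR adjusted p = 0.0957) and over 18.

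Bmpr1a (chromosome 14, 34410734 to 34503341, minus strand), the type I receptor that binds both ligands, had the narrowest spread apart from Id2 in the 14 libraries, 90.4 to 124 CPM. It was at 120.2, 124 and 118 CPM with Wnt, at 119, 116 and 115 CPM with the FZD5 agonist, and at 93.0, 111 and 119 CPM with the FZD6 agonist. It was at 71.1, 90.4 and 73.0 CPM in CHIR, at 99.0, 7.50 and 104 CPM after 24 h of withdrawal, and at 121, 121 and 116 CPM after 48 h. The value of 7.50 CPM belongs to the 24 h library that stood apart, in which mitochondrial genes took 4.13% of counts, against 0.271% to 0.718% in the other 17 libraries. Over 14 libraries Bmpr1a was higher than in CHIR 2 after 48 h by 0.42, with Wnt by 0.46, with the FZD5 agonist by 0.40 and with the FZD6 agonist by 0.37 (edgeR adjusted p = 0.00116, 0.000687, 0.00450 and 0.0134). Over 18 libraries it was called nowhere. It shares 290 exonic bases with the antisense gene Gm17110, which had 972 counts against 74660.

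**Figure D2:**
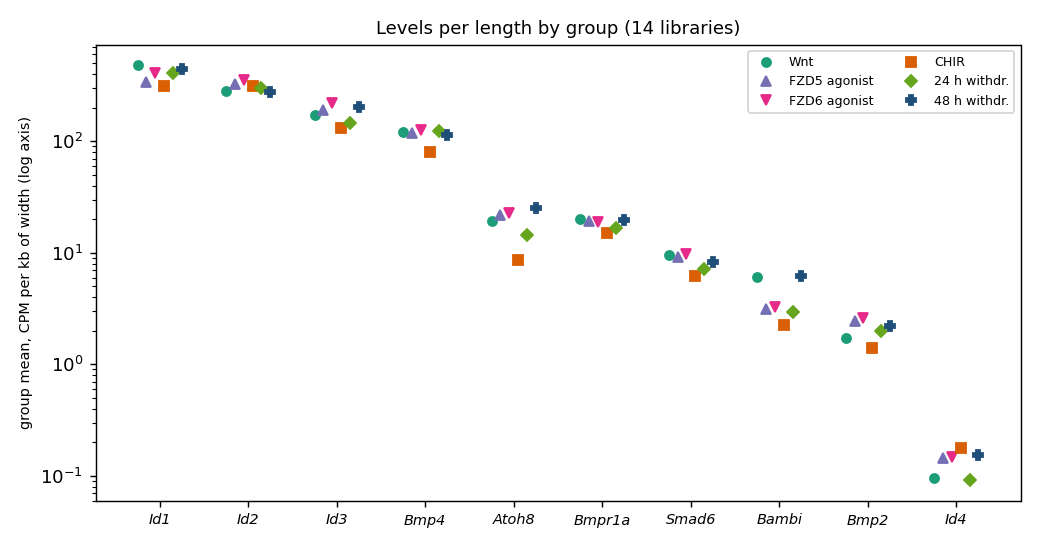
Group means of the 10 genes in CPM per kb of gene width (log axis) over the 14 libraries, 1 symbol per group (n = 1 in CHIR, 2 with the FZD6 agonist and after 24 h, 3 in the rest). Id1 is the highest and Id4 the lowest, and differences between genes are far wider than those between groups.

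Per length, the medians over 14 libraries were 421 CPM per kb for Id1, 303 for Id2, 172 for Id3 and 120 for Bmp4. Atoh8 followed with 21.2, Bmpr1a with 19.4, Smad6 with 8.62, Bambi with 3.51, Bmp2 with 2.22 and Id4 with 0.127 CPM per kb. Atoh8 and Bmpr1a are neighbours whose ranges overlapped between libraries, while Bmp4 exceeded Bmp2 in each of the 14.

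Over 14 libraries every member called against CHIR 2 was higher than in it. After 48 h, 6 of 10 members were higher (Bambi, Atoh8, Bmpr1a, Bmp4, Id1 and Smad6) and none lower, against 13.6% of all tested genes called higher. The median difference over the 10 was 0.53, against 0.01 over all tested genes. With Wnt the same 6 were higher, against 13.6% of all tested genes, and with the FZD5 and FZD6 agonists the same 5 (these without Id1), against 8.00% and 5.47%. These comparisons share CHIR 2. After 24 h only Bmp4 was higher, by 0.64 (edgeR adjusted p = 0.00748), against 2.75%. After 48 h of withdrawal 3 were higher than after 24 h (Bambi by 1.07, Atoh8 by 0.82 and Bmpr1a by 0.25), against 8.49%. Wnt against 24 h withdrawal also gave 3 (Bambi, Bmpr1a and Smad6), against 6.75%.

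Between the ligands and 48 h withdrawal, 3 of 10 members were called with the FZD5 agonist (15.7% of all tested genes) and 2 of 10 with the FZD6 agonist (12.1%). Against Wnt, 2 were called with the FZD5 agonist (16.7%) and 2 with the FZD6 agonist (11.8%), shares near those of all tested genes. With edgeR over 14 libraries no member was called for the FZD5 against the FZD6 agonist (0.00574% of all genes), with 1 member at an unadjusted p under 0.05. For Wnt against 48 h withdrawal edgeR called no gene at all (0%), with 1 member (Atoh8) at an unadjusted p under 0.05, and DESeq2 and limma voom over 18 libraries called no member in either. Over 18 libraries, 13 of the 15 comparisons had no member called by edgeR, with 0 to 3 members at an unadjusted p under 0.05 in each. Few genes of any kind were called there: 0.0485% of all tested genes for 48 h against 24 h, 0.0303% for Wnt against 24 h, 0.0121% for the FZD6 agonist against 48 h withdrawal, 0.00606% for each agonist against CHIR and for the FZD5 agonist against 24 h, and 0% in the other 7. Over 14 libraries no member was called for the FZD5 or FZD6 agonist against 24 h withdrawal (4.23% and 0.677% of all tested genes), with 4 and 5 members at an unadjusted p under 0.05 by edgeR. In the test for any difference over 14 libraries 7 of 10 members were called, against 29.3% of all tested genes.

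**Figure D3:**
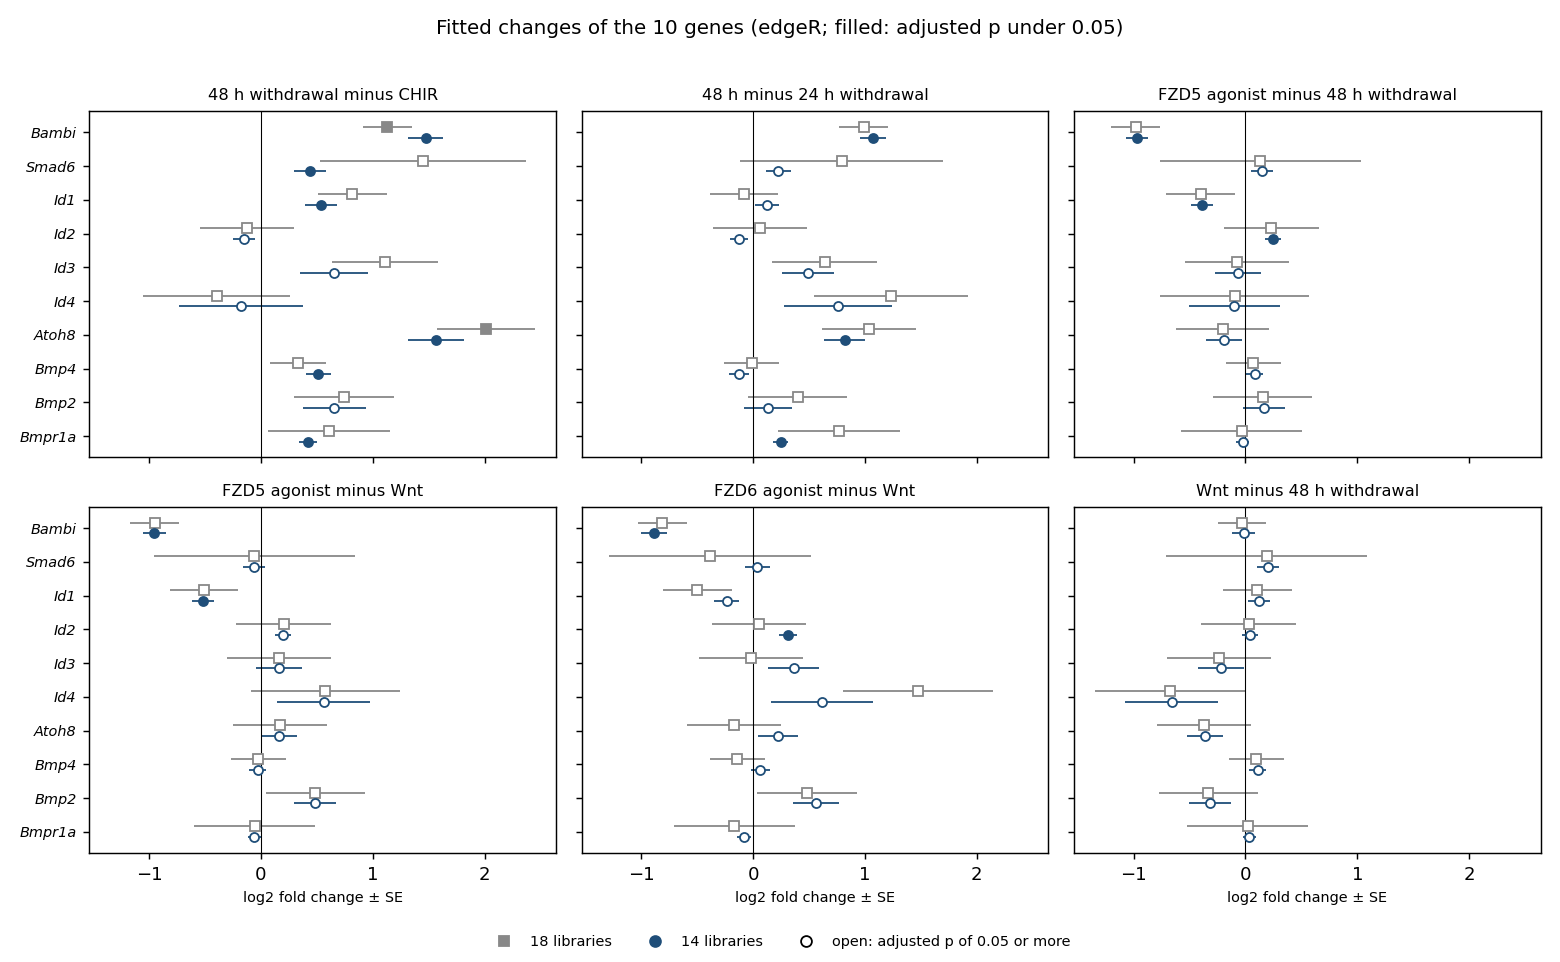
Fitted log2 fold changes with SE for the 10 genes in 6 comparisons, over 18 libraries (grey squares) and 14 libraries (blue circles), filled where the edgeR adjusted p was under 0.05. Bambi is positive for 48 h withdrawal against CHIR, at 1.13 and 1.47, and negative for both agonists against Wnt, while Wnt minus 48 h withdrawal is close to 0 for it.

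The rest of the pathway was read from a list of 53 further genes, of which 32 were tested over 18 libraries and 34 over 14. Over 18 libraries none was called by edgeR in any of the 15 comparisons, with 0 to 8 of them at an unadjusted p under 0.05 in each. They were not counted with the other tools.

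Over 14 libraries 10 of 34 were higher and 2 lower after 48 h of withdrawal than in CHIR 2, against 13.6% and 13.9% of all tested genes, with a median of 0.26 against 0.01 for all tested genes. The ligand genes Bmp3 and Bmp5 had the smallest p. Bmp3, known as an antagonist of osteogenic BMPs, was at 14.8, 18.3 and 15.0 CPM with Wnt, at 5.10, 4.18 and 4.12 CPM with the FZD5 agonist, and at 25.9, 3.90 and 2.86 CPM with the FZD6 agonist. It was at 2.08, 1.499 and 53.9 CPM in CHIR, at 3.45, 8.74 and 4.37 CPM after 24 h of withdrawal, and at 17.5, 19.1 and 21.4 CPM after 48 h. Both extremes, 25.9 and 53.9 CPM, were in libraries that stood apart and in which club cell markers summed to 821 and 863 CPM. Their part in the Bmp3 values was not tested. In the 14 libraries Bmp3, like Bambi, was higher in every Wnt and 48 h withdrawal library than in any other.

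Bmp3 was lower with the FZD5 agonist than with Wnt by -1.85 (SE 0.153) and than after 48 h of withdrawal by -2.10 (SE 0.154), with edgeR adjusted p = 2.40e-06 and 7.52e-07 over 14 libraries. In fits of only the compared groups it was called as well (edgeR adjusted p = 0.000231 and 6.81e-05). Bmp5 averaged 34.6 ± 1.36 CPM with the FZD5 agonist, against 43.9 ± 1.76 CPM with Wnt and 44.8 ± 2.27 CPM after 48 h (SD, n = 3 each), without overlap. Its differences were -0.35 and -0.36 over 14 libraries (edgeR adjusted p = 0.00519 and 0.00412). Against CHIR 2, Bmp3 was higher by 3.71 after 48 h and by 3.46 with Wnt, and Bmp5 by 1.63 and 1.62 (edgeR adjusted p = 3.02e-07, 5.83e-07, 2.98e-07 and 3.37e-07). Over 18 libraries neither gene was called in any comparison, those without CHIR included. In CHIR 3, Bmp3 was at 53.9 CPM and Bmp5 at 35.2 CPM. Bmp6 had wide spread, 13.9 to 30.7 CPM over 14 libraries, and was not called in these comparisons.

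Other genes higher after 48 h than in CHIR 2 were Nbl1, a secreted antagonist, by 2.20, Smurf2, a ubiquitin ligase that targets Smads and receptors, by 0.62, Twsg1, which binds BMPs outside the cell, by 0.39, and the type I receptor gene Acvr1, by 0.70 (edgeR adjusted p = 0.00294, 0.000564, 0.00598 and 0.00617). The 2 lower were Smad1 (-0.35) and the E protein gene Tcf3 (-0.28). Wnt gave 11 higher and 1 lower, against 13.6% and 13.0% of all tested genes, with Nbl1 higher by 2.01, Smurf2 by 0.51, Twsg1 by 0.45 and Bmpr2, a type II receptor gene, by 0.55. The FZD5 agonist gave 8 higher and the FZD6 agonist 5 higher, against 8.00% and 5.47% of all tested genes. They included Bmp5 at 1.27 and 1.13, Bmp3 at 1.60 and 1.20, Nbl1 at 2.62 and 2.20 and Skil, a repressor of Smads, at 0.79 and 0.66. After 24 h, Bmp3 was higher than in CHIR 2 by 1.40 and Bmp5 by 0.97, differences that rest on 1 CHIR library. After 48 h of withdrawal 8 were higher and 1 lower than after 24 h, against 8.49% and 9.50% of all tested genes: Bmp3 by 2.31, Bmp5 by 0.66, Smurf2 by 0.36, Acvr2b by 0.63 and Twsg1 by 0.27 were among the higher, and Crim1 was lower by -0.74. Against 24 h withdrawal, Wnt gave 5 higher (Bmp3, Bmp5, Twsg1, Fstl1 and Acvr2b, by 0.33 to 2.55, against 6.75% of all tested genes), the FZD5 agonist 4 (Nbl1, Smad1, Smad9 and Acvr2b, by 0.34 to 1.92, against 2.37%) and the FZD6 agonist 0 by edgeR, with 5 at an unadjusted p under 0.05.

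Of the receptor and Smad genes, Smad1, Smad9 and Acvr2a were higher with the FZD5 agonist than with Wnt over 14 libraries. Smad1, a receptor-regulated Smad, was at 96.1, 86.1 and 82.7 CPM with the FZD5 agonist, against 62.7, 69.1 and 65.9 CPM with Wnt and 58.3, 65.6 and 60.8 CPM after 48 h of withdrawal. These groups did not overlap. It was higher with the FZD5 agonist by 0.42 and 0.53 over 14 libraries (edgeR adjusted p = 0.00106 and 0.000165), and by 0.42 and 0.51 in fits of only the compared groups (edgeR adjusted p = 0.0126 and 0.00436). Acvr2a, a type II receptor, was higher by 0.38 and 0.32 (edgeR adjusted p = 0.00194 and 0.00586). Crim1, a transmembrane protein that binds BMPs, averaged 15.7 ± 2.75 CPM with the FZD5 agonist, against 7.69 ± 1.29 CPM with Wnt and 7.04 ± 1.71 CPM after 48 h (SD, n = 3 each), and was higher by 1.03 and 1.16 (edgeR adjusted p = 0.00152 and 0.000657). Smad9, another receptor-regulated Smad, was higher than with Wnt by 1.25 (edgeR adjusted p = 0.0341). In all, 4 of 34 were higher and 2 lower with the FZD5 agonist than with Wnt, against 8.74% and 7.92% of all tested genes (median 0.06, against 0.02 for all tested genes). Against 48 h withdrawal 4 were higher and 3 lower, against 8.86% and 6.84% of all tested genes (median 0.03, against 0.02). These counts are near the shares of all tested genes.

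Over 14 libraries the FZD6 agonist gave 3 higher and 2 lower of 34 than Wnt, near the 6.61% and 5.19% of all tested genes. Set against 48 h withdrawal it gave 3 higher and 3 lower, where 7.42% and 4.73% of all tested genes were called. Smad1 was higher by 0.39 and 0.51, Crim1 by 0.97 and 1.11 and Acvr2a by 0.34 and 0.29. Bmp3 differed by -2.26 and -2.51 and Bmp5 by -0.49 and -0.50. Acvr1 was lower than after 48 h by -0.52. Acvr1 was also lower with the FZD5 agonist than after 48 h (-0.46, edgeR adjusted p = 0.0136). Between Wnt and 48 h withdrawal none of the 34 was called by edgeR, with 2 (Tcf4 and Fst) at an unadjusted p under 0.05. Fst, not tested over 18 libraries, had 20 counts in 48 h withdrawal 2 and 0 in the other 48 h libraries and all Wnt libraries. Its p thus rests on 1 library. The antagonists Chrd, Chrdl1 and Chrdl2 reached at most 0.148, 0.119 and 0 CPM, and the target Msx2 at most 0.191 CPM. Nog, which encodes the antagonist Noggin, had 13 counts in CHIR 2, at most 3 in any other library and 0 in the 3 Wnt libraries. It was not tested over 18 libraries, and over 14 it passed the filter on low counts only through CHIR 2. Nog is the gene counted above as lower with Wnt than in CHIR 2, and no fall is read from that. Per length, the type I receptor gene Bmpr1b had a median of 0.0195 CPM per kb over the 14 libraries, against 19.4 CPM per kb for Bmpr1a.

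**Figure D4:**
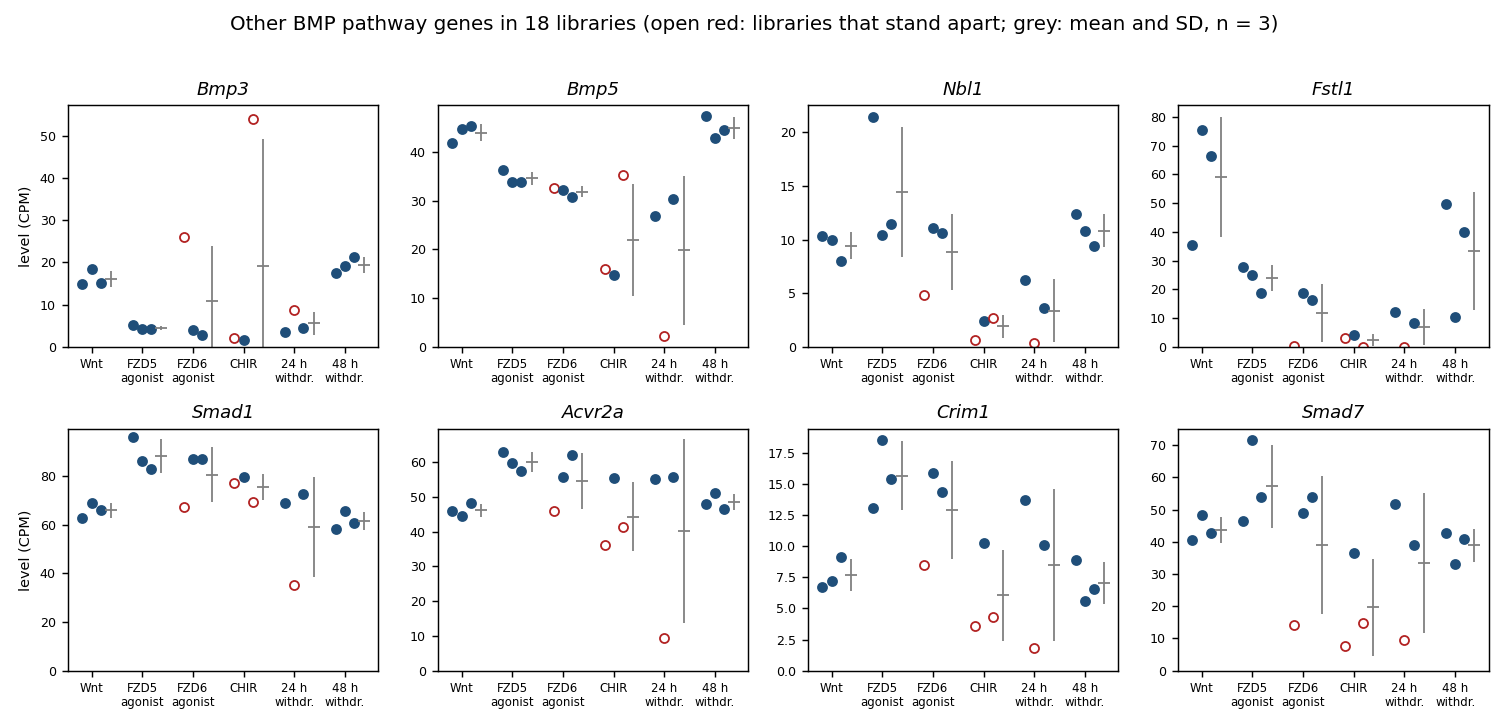
Levels of 8 further BMP pathway genes in CPM (linear axes from 0, a scale of its own for each gene) in the 3 libraries of each group, with group mean and SD in grey (bars stop at the axis) and the 4 libraries that stood apart as open red circles. In the filled points, Bmp3 and Bmp5 are high with Wnt and after 48 h of withdrawal. Smad1 and Crim1 are, in the filled points, higher with both agonists than with Wnt or after 48 h.

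Over the 14 libraries the genes most like Bambi were Tmem110, Hp and Ivd, with Pearson r of 0.984, 0.983 and 0.981 on log2 CPM. Rab3a was most like Id1 (r = 0.938), and Slc52a3 was most like both Atoh8 (r = 0.947) and Id3 (r = 0.908). Among the members, Atoh8 and Id3 were the most alike (r = 0.860), then Atoh8 and Bmpr1a (r = 0.830) and Bambi and Id1 (r = 0.777), and Bambi and Id2 ran opposite (r = -0.584). Over 18 libraries the same pairs had r of 0.767, 0.475, 0.353 and -0.239, and Smad6 and Bmpr1a were the most alike (r = 0.923). These values describe likeness over libraries that share their group structure, and are given without p. Over 18 libraries the 3 genes most like Bambi were Fbp1, Npc2 and Car8, with r of 0.9595, 0.955 and 0.937.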

How the data were processed

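RNA was isolated with a column kit, and 0.1 µg of total RNA per library went into a stranded total RNA preparation, per the labels' protocols. For each library the deposited file lists a whole-number count, an RPKM value and a width for every gene. The deposited counts are not normalised, and the RPKM values, computed by the authors, were not used in any test. The submitters' processing notes name GSNAP and GRCm38; no annotation, counting tool or strand setting is named there.

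Identifiers were matched to GENCODE M21 (52403 of 52636, 99.6%). The members and gene lists were chosen with earlier results of these data known, as was the limit of 0.96 on median correlation that sets 4 libraries apart. The further genes named are those called with the smallest p, up to 6 per comparison, and the ligands and receptors. Outside this rule, Tcf4 and Fst are named for an unadjusted p. Chrd, Chrdl1, Chrdl2 and Msx2 are named for low levels, and other listed genes with levels as low are not. Counts were filtered by group, scaled by TMM and tested with edgeR 4.0.16 quasi-likelihood tests in R 4.3.3, in 1 fit of 18 libraries, with Benjamini-Hochberg adjusted p under 0.05 over 16497 genes in each of 15 comparisons. The 14-library fit tested 17433 genes. Each SE was taken as the fold change on the log2 scale over the square root of its F statistic. Alternatives were DESeq2 1.42.0, limma 3.58.1 voom with quality weights, other factors and filters, the compared groups alone, a replicate block and leaving out each library. The test was tested on simulated data. Within groups, pairs of libraries differed by 7.08 to 1118 in chi-square per degree of freedom, so each counted as 1 sample. Count floors cover counting error only. 1 gene of the pathway lists is not reported here, though it stayed in the fits.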

Additional observations from a re-analysis of the deposited data

How the results depend on the processing

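Over 18 libraries edgeR called 2 members for 48 h withdrawal against CHIR, 1 for Wnt against CHIR, 1 for any difference and 0 in the other comparisons. Without the 4 libraries that stand apart, the members called numbered 1 for 24 h withdrawal against CHIR, 6 for 48 h withdrawal against CHIR, 3 for 48 h against 24 h, 3 and 2 for the FZD5 and FZD6 agonists against 48 h withdrawal, 3 for Wnt against 24 h withdrawal, 6, 5 and 5 for Wnt, FZD5 and FZD6 agonists against CHIR, 2 and 2 for the FZD5 and FZD6 agonists against Wnt, and 7 for any difference. With only the compared groups, 48 h withdrawal and Wnt against CHIR gave 0 each, the FZD5 and FZD6 agonists against 48 h gave 2 and 1, and the FZD5 agonist against Wnt gave 3. Without a filter, 48 h withdrawal against CHIR gave 1, Wnt against CHIR 0 and any difference 0. With limma voom, 48 h against 24 h gave 2, the FZD5 and FZD6 agonists against 48 h 2 each, Wnt against 24 h 1, both agonists against Wnt 2 each, and any difference 6. Of all 16497 genes tested, limma voom called 3307, 3398, 3734, 2419, 3533, 3673 and 5741 there, in the same order. DESeq2 gave 1 for each of these pairs, 2 for Wnt against CHIR, 1 for the FZD5 agonist against CHIR and 2 for any difference. Of all 13607 to 16126 genes tested, DESeq2 called 582, 34, 65, 374, 34 and 60 in these pairs, and 1091, 663 and 1654 in the rest. Leaving out 1 library at a time gave 0 to 2 for 48 h withdrawal against CHIR, 0 to 1 for Wnt against CHIR, 0 to 2 for any difference and 0 elsewhere. The members called over 18 libraries kept their sign under all of these. Of those called over 14 libraries or in the compared groups alone, Id2 changed sign: its differences for the FZD6 agonist from 48 h withdrawal and from Wnt were 0.36 and 0.31 over 14 libraries, and reached -0.10 and -0.12 when 1 of the 18 libraries was left out. The cause of these changes was not tested, other than that fits with fewer libraries hold fewer samples.

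With the replicate number as a block, any difference gave 0 and no other count of members changed. Same-numbered libraries did not deviate together (median correlation -0.0226, -0.521 to 0.466 over 45 pairs, against 0.0150 over 90 pairs of different number), so the numbers are not taken to pair the libraries. Every comparison with CHIR over 14 libraries rests on 1 CHIR library, and Id4 lies too near the count floor for a fold change to be read closely.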
